A study of Mus musculus with 10 samples.

Results

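The mitochondrial respiratory chain passes electrons from NADH and succinate to oxygen through complexes I to IV and uses the proton gradient built on the way to make ATP in complex V. Complex I (NADH dehydrogenase) and complex II (succinate dehydrogenase) feed electrons into ubiquinone, complex III hands them to cytochrome c, complex IV (cytochrome c oxidase) reduces oxygen, and complex V is the ATP synthase. Most subunits are encoded in the nucleus, a smaller set in mitochondrial DNA, and complex II is wholly nuclear. T cells that divide after activation use glycolysis with lactate release beside respiration, whereas memory T cells are known for a larger respiratory reserve.

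The genes described here are the nuclear-encoded subunits of these complexes, chosen by symbol (Nduf subunits, Sdha to Sdhd, Uqcr, Cox4 to Cox8 and Atp5 genes) with at least 10 reads over all libraries. The rule took 80 of the 23992 symbols in the tables, 36 in complex I, 4 in complex II, 8 in complex III, 15 in complex IV and 17 in complex V. Another 4 symbols matched by name but had fewer reads: Ndufa4l2 had 3 reads in all, and Cox7b2, Cox8b and Cox8c had 0. Cox4i2 was kept by the rule but did not pass the test's filter on low counts, so 79 genes were tested. Transcripts of the mitochondrial chromosome were not analysed here. Some symbols stand in a complex by name alone: Ndufa4 is now known as a complex IV subunit, and Cox7a2l is known as a factor in joining complexes III and IV. Atp5sl and Atp5s carry the newer names Dmac2 and Dmac2l in the reference table.

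The RNA came from spleen CD8+ T cells of C57BL/6N mice that were activated with anti-CD3 and anti-CD28 for 48 h, pooled, and cultured for another 48 h. The 5 groups, of 2 libraries each, were mouse IL-21 (100 ng/ml) with LDHi, IL-21 alone, human IL-2 (100 IU/ml) with LDHi, IL-2 alone, and no cytokine. LDHi is NCI-737, an inhibitor of lactate dehydrogenase, which reduces pyruvate to lactate. It was given at 1 µM from activation onward, and no group had it without cytokine. Because the cells were pooled before the cytokines were added and the labels do not say what a replicate is, p-values reflect how these libraries vary, and that variation may be technical.

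Levels are given as normalised RPKM, that is read counts divided by the length of the transcript and by the library size scaled by TMM, and fold changes as log2 ± SE. A gene is called higher or lower when edgeR's quasi-likelihood test, adjusted by Benjamini-Hochberg over all 14357 genes tested, gives an adjusted p below 0.05. Where groups of a gene are said not to overlap, this only describes its libraries. The share of all genes without overlap was not counted, so it adds no support to a call. Libraries held 27137191 to 46656183 reads on the transcripts used, the fewest in IL-21 replicate 2, with 59.9% of the reads that the authors count as that library's total, against 69.1 to 79.4% in the other 9. In IL-21 replicate 2 the median member differed from IL-21 replicate 1 by -0.51 on the log2 scale, while the replicates of the other groups differed by -0.18 to 0.10. Genes with transcripts under 1000 bases were also lowest in it relative to longer genes, at a ratio of 1.65 against 1.76 to 2.10 in the other 9 libraries, and the members' transcripts had a median length of 679 bases. CD8 T cell markers (8 genes) summed to between 2322 and 2949 normalised RPKM in the 10 libraries. Single CD8 markers were called in both directions. In IL-2 + LDHi against IL-2, 2 were higher and 2 lower, where 39.4% of all genes were called. In IL-21 against IL-2, 3 were higher and 1 lower, where 49.6% were called. Macrophage and dendritic cell markers (5 genes) summed to 9.64 and 11.9 in IL-21 + LDHi, 81.0 and 103 in IL-21 alone, 16.8 and 23.2 in IL-2 + LDHi, 16.3 and 19.6 in IL-2, and 193 and 254 without cytokine. Basophil and mast cell markers (4 genes) summed to 83.1 and 136 in IL-21 and to 261 and 576 without cytokine, against 0.533 to 2.88 in the other groups, and none of these marker genes was at 0 reads in any library. Fewer cells of a type and less RNA per cell cannot be told apart in such bulk libraries.

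By complex, the geometric mean over the 75 members with a mean of at least 5 normalised RPKM was highest in the IL-2 libraries for each of the 5 complexes. Complex I stood at 49.2 and 52.3 in IL-21 + LDHi, 56.3 and 40.9 in IL-21 alone, 55.8 and 59.7 in IL-2 + LDHi, 61.3 and 61.2 in IL-2, and 48.3 and 42.5 without cytokine. Complex IV stood at 128 and 144 in IL-21 + LDHi, 182 and 124 in IL-21 alone, 153 and 168 in IL-2 + LDHi, 193 and 202 in IL-2, and 145 and 125 without cytokine. Complexes II, III and V averaged 85.5 ± 2.64, 119 ± 1.33 and 159 ± 0.740 in IL-2, against 65.0 ± 1.17, 82.0 ± 6.81 and 119 ± 9.90 without cytokine (SD, n = 2). The IL-2 libraries lay above those of IL-2 + LDHi and above those without cytokine in all 5 complexes, with no overlap. The IL-21 pair lay farther apart than any other pair, around the no-cytokine and IL-21 + LDHi libraries. All members together took 0.642 and 0.669% of kept reads in IL-21 + LDHi, 0.765 and 0.562% in IL-21 alone, 0.756 and 0.802% in IL-2 + LDHi, 0.833 and 0.836% in IL-2, and 0.682 and 0.633% without cytokine.

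**Figure D1:**
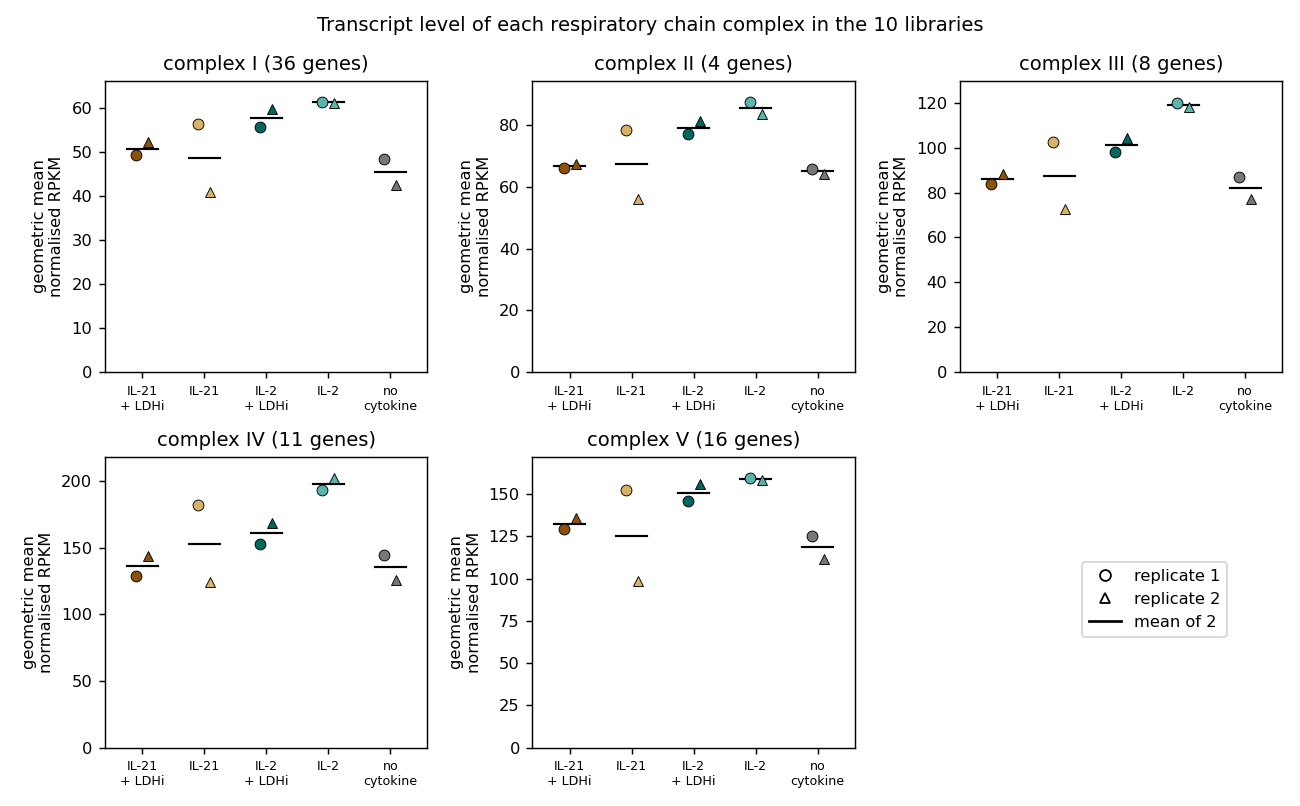
Geometric mean normalised RPKM of the members of each complex (vertical axes, from 0) in the 10 libraries, with groups along the horizontal axes, circles for replicate 1, triangles for replicate 2 and a line for their mean. The IL-2 libraries are the highest pair in each panel (61.3 and 61.2 for complex I), and the IL-21 libraries lie far apart (56.3 and 40.9).

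Relative to no cytokine, IL-2 gave 39 of 79 genes higher and 2 lower, where 50.5% of all genes tested were called, 25.6% higher and 24.8% lower. The median member differed by 0.47 on the log2 scale, against -0.03 over all genes and 0.18 over genes with transcripts under 1000 bases. Complex IV had 11 of 14 genes higher and 1 lower (median 0.71), complex III 5 of 8 higher (median 0.54), and complex II 3 of 4 (median 0.49). Over the 11 complex IV genes with a mean of at least 5 normalised RPKM the median was 0.61. Complex V had 6 of 17 higher and 1 lower (median 0.43), and complex I 14 of 36 higher (median 0.37). The count of 41 called genes was 21 with either IL-2 library left out, 24 without no-cytokine replicate 2, and 23 by limma on the deposited RPKM. Among the genes described next, Cox5a, Cox5b, Cox6b1, Cox7a2, Cox7a2l, Cox8a, Sdhb, Sdhc, Sdhd, Uqcrc1 and Uqcrfs1 lost their call without IL-2 replicate 1, and all of these but Cox7a2l and Sdhb also without IL-2 replicate 2. Without no-cytokine replicate 2 all of them but Cox7a2l and Sdhd lost it too, and without no-cytokine replicate 1 Cox5a, Cox7a2, Sdhc, Sdhd, Uqcrc1 and Uqcrfs1. Atp5f1 and Atp5o, also described below, were not part of this check of single calls. Macrophage and basophil markers were lower in IL-2 than without cytokine (16.3 and 19.6 against 193 and 254, and 2.59 and 2.88 against 261 and 576, summed normalised RPKM). The part of these markers' cells in the changes was not tested.

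In complex I, the core subunit Ndufv2 was called, and 13 of 29 accessory subunits were. The core subunits carry the flavin and the iron-sulfur centres. The called core gene was Ndufv2, of the NADH-oxidising arm, with 71.3 and 68.5 normalised RPKM in IL-2 against 40.9 and 42.5 without cytokine (0.75 ± 0.10, adjusted p = 0.000252). Ndufs1, the largest core subunit, had 34.0 and 33.1 in IL-2 against 26.4 and 29.3 without cytokine; the groups did not overlap, but the difference of 0.27 did not pass the test. Ndufs7, which holds an iron-sulfur centre near the quinone site, had 38.4 and 42.9 in IL-2 against 45.8 and 37.4 without cytokine, so its groups overlapped. The core subunits Ndufs3, Ndufs8 and Ndufv1 had log2 differences of 0.35, 0.25 and 0.43, and did not pass the test.

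Ndufv3, an accessory subunit beside the NADH site, had the largest fold change of complex I. It stood at 37.1 and 41.1 in IL-21 + LDHi, 51.4 and 48.3 in IL-21 alone, 38.8 and 40.8 in IL-2 + LDHi, 102 and 104 in IL-2, and 41.6 and 36.0 without cytokine. Both IL-2 libraries lay above every other library, and IL-2 differed from no cytokine by 1.41 ± 0.11 (adjusted p = 1.71e-05). The gene has a long form of 1579 bases and a short form of 487 bases, which differ by 1 exon of 1092 bases at chr17:31527310-31528401 (mm10), exon 3 of 4 in the annotation. The reads counted on the short form lie on exons that both forms share, and the long form's count beyond them, the reads of the extra exon, made up 39.6 and 37.6% of the gene's reads in IL-2, against 46.5 and 42.1% without cytokine. Reads on the shared exons numbered 3614 and 4286 in IL-2 against 1480 and 1096 without cytokine, and reads of the extra exon 2370 and 2586 in IL-2 against 1287 and 797 without cytokine, so both parts of the gene had more reads. Ndufc2, an accessory subunit of the membrane arm, had 92.0 and 78.5 normalised RPKM in IL-2 against 41.1 and 50.1 without cytokine (0.90 ± 0.15, adjusted p = 0.000975).

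In complex II the 3 genes other than the flavoprotein were called. Sdha, the flavoprotein that oxidises succinate, had 88.6 and 83.3 normalised RPKM in IL-2 against 87.7 and 85.8 without cytokine, with overlapping groups and a difference of -0.01. Sdhb, the iron-sulfur subunit, had 109 and 97.1 in IL-2 against 71.6 and 62.3 without cytokine (0.62 ± 0.18, adjusted p = 0.0165). The membrane anchors Sdhc and Sdhd were higher by 0.47 ± 0.16 and 0.51 ± 0.15. Whether Sdha differs from the others in its response was not tested.

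In complex III the core proteins Uqcrc1 and Uqcrc2 and the Rieske iron-sulfur protein Uqcrfs1 were higher in IL-2. Uqcrc2 had 69.1 and 69.9 in IL-21 + LDHi, 78.8 and 65.1 in IL-21 alone, 80.9 and 84.6 in IL-2 + LDHi, 130.5 and 136 in IL-2, and 73.7 and 69.9 without cytokine, in normalised RPKM. The IL-2 libraries stood alone at the top, at 0.89 ± 0.11 over no cytokine (adjusted p = 0.000219). The opposite-strand gene Pdzd9 shares 504 exon bases with it and had at most 5 reads in any library. Uqcrfs1 had 126 and 135 in IL-2 against 77.3 and 62.9 without cytokine (0.90 ± 0.30, adjusted p = 0.0332), and Uqcrc1 was higher by 0.41 ± 0.15. Uqcrh, the hinge protein and the most abundant gene of the complex, had 231 and 269 in IL-2 against 317 and 243 without cytokine; its groups overlapped and the difference of -0.17 did not pass the test.

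In complex IV most of the general subunits were higher in IL-2. Cox6a1 had 247 and 237 normalised RPKM in IL-2 against 138 and 111 without cytokine (0.96 ± 0.16). Cox7c had 136 and 132 in IL-2 against 76.2 and 61.8 without cytokine (0.96 ± 0.18), and Cox5a had 163 and 175 against 89.8 and 80.2 (0.99 ± 0.28). None of these groups overlapped. Cox5b, Cox6b1, Cox7a2, Cox7b and Cox8a were higher by 0.51, 0.39, 0.72, 0.54 and 0.61 on the log2 scale. Cox4i1, a regulatory subunit that binds ATP, had 346 and 348 in IL-2 against 325 and 250.3 without cytokine, a difference of 0.27 that did not pass the test.

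The minor isoforms, known from muscle, lung or testis, had few reads in most libraries. Cox6a2, the heart and muscle form, had 1 and 2 reads in IL-21 + LDHi, 3 and 5 in IL-21 alone, 3 and 3 in IL-2 + LDHi, 71 and 82 in IL-2, and 2 and 2 without cytokine. That put it at 2.91 and 2.97 normalised RPKM in IL-2 and at 0.280 or less in the 8 other libraries. The fitted difference from no cytokine was 5.10 ± 0.53 (adjusted p = 7.59e-05), a value that depends on small counts. It shares 70 exon bases with the opposite-strand gene Itgad, which had 6 and 11 reads in IL-2 against 134 and 55 without cytokine. Cox7a1, the muscle form of Cox7a2, had 31 and 38 reads in IL-2 against 7 and 4 without cytokine (2.56 ± 0.50, adjusted p = 0.00258). Cox4i2, the lung form of Cox4i1, was not tested; it had 8 and 28 reads in IL-2, 0 and 1 without cytokine, and 0 in each of the 6 libraries of the other groups. Cox6b2, the testis form of Cox6b1, had 7.68 and 8.84 normalised RPKM in IL-2 against 2.93 and 6.52 without cytokine, which did not pass the test (0.81). In the same IL-2 libraries the general forms Cox6a1 and Cox7a2 stood at 247 and 237 and at 99.2 and 113 normalised RPKM.

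Cox7a2l, known as a factor in joining complexes III and IV into supercomplexes, was the complex IV gene called lower. It had 356 and 377 in IL-21 + LDHi, 371 and 308 in IL-21 alone, 225 and 254 in IL-2 + LDHi, 228 and 259.9 in IL-2, and 422 and 344 without cytokine, in normalised RPKM. All 4 libraries with IL-2 lay below the 6 others, and IL-2 against no cytokine gave -0.65 ± 0.15 (adjusted p = 0.00548). Whether its protein joins these complexes in C57BL/6N mice was not tested. Atp5sl had 29.3 and 28.7 in IL-21 + LDHi, 28.8 and 27.6 in IL-21 alone, 14.9 and 14.6 in IL-2 + LDHi, 12.97 and 12.8 in IL-2, and 26.7 and 21.6 without cytokine. Again the 4 libraries with IL-2 were the lowest (-0.91 ± 0.12 for IL-2 against no cytokine, adjusted p = 0.000295). Under its newer name Dmac2 it is known, from human cells, as a factor in the assembly of the membrane arm of complex I.

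In complex V, 3 of the 5 genes of the catalytic F1 head were called higher. Atp5b, the catalytic beta subunit and the most abundant member, had 587 and 556 normalised RPKM in IL-2 against 299.7 and 282 without cytokine (0.98 ± 0.18, adjusted p = 0.00202). Atp5c1, of the central stalk, had 109.9 and 101 in IL-21 + LDHi, 114 and 103 in IL-21 alone, 121 and 124 in IL-2 + LDHi, 174 and 174 in IL-2, and 99.6 and 99.2 without cytokine (0.81 ± 0.10 for IL-2 against no cytokine, adjusted p = 0.000197). Atp5a1, the alpha subunit that pairs with beta, had 331 and 298 in IL-2 against 242 and 228 without cytokine and did not pass the test (0.42). Of the 3 c-ring genes, which encode the same mature protein, Atp5g2 was higher (342 and 365.2 in IL-2 against 233 and 188 without cytokine, 0.75 ± 0.17), while Atp5g3 (0.53) and Atp5g1 (0.11) did not pass. Of the 7 genes of the peripheral stalk and membrane part, 2 were higher, Atp5f1 (0.72 ± 0.11) and Atp5o (0.69 ± 0.14).

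**Figure D2:**
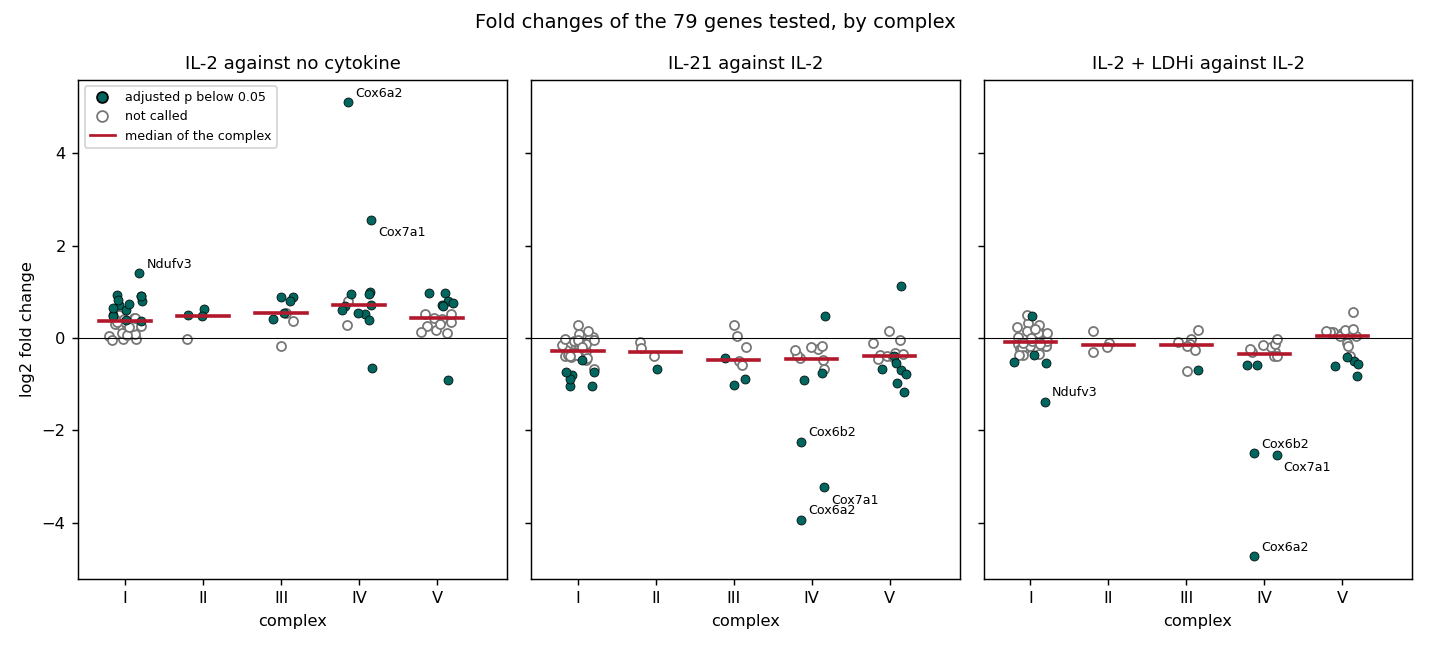
Log2 fold changes (vertical axis) of the 79 genes tested, by complex, in 3 comparisons; filled points passed an adjusted p below 0.05, open points did not, and red lines are the medians of the complexes. IL-2 against no cytokine lies mostly above 0 (medians 0.37 to 0.71), IL-21 against IL-2 mostly below 0, and in IL-2 + LDHi against IL-2 the complex IV points all lie below 0.

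For 67 of the 80 genes, RefSeq promoters (GRCm38.p6) of 250 bases before to 50 after the start were searched on both strands for cores bound by factors known to act on respiratory genes: NRF1 (CGCANGCG), ETS factors (CCGGAAG), YY1 (AAGATGGCG), and the hypoxia element (ACGTG). None of these cores lies within another. The 120 bases before the start, a part of the window searched, are shown for 4 genes that were higher in IL-2 and 2 that were lower. Some hold a match in these bases and some do not. The first 4 are chr17:31519995-31520114 (plus strand) of Ndufv3, chr5:115348959-115349078 (minus strand) of Cox6a1, chr7:30184051-30184170 (plus strand) of Cox7a1 and chr15:102671048-102671167 (minus strand) of Atp5g2. The other 2 are chr17:83514334-83514453 (minus strand) of Cox7a2l and chr7:25619294-25619413 (plus strand) of Atp5sl. Each is read 5′ to 3′ on the gene's strand, and capitals mark a match to any of the cores on either strand.
Ndufv3: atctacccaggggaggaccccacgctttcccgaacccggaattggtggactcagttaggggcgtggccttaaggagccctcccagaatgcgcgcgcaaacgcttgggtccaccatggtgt
Cox6a1: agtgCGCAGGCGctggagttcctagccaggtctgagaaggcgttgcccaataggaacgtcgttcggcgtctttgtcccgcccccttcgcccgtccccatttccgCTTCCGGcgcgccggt
Cox7a1: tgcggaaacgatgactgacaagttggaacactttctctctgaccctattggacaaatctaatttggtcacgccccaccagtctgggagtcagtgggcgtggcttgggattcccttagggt
Atp5g2: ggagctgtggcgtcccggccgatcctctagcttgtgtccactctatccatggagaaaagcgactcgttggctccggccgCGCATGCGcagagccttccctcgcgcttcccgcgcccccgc
Cox7a2l: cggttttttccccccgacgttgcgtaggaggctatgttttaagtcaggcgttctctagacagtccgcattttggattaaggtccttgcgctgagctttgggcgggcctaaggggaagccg
Atp5sl: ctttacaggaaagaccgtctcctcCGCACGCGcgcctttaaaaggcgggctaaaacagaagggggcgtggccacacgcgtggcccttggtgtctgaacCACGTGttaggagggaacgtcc
The NRF1 core was present in 24 of the 67 promoters (35.8%), against 16.65% of the 10500 promoters of tested genes and 8.42% of all 27025. It stood in 10 of 32 promoters of complex I, 2 of 3 of complex II, 3 of 5 of complex III, 1 of 11 of complex IV and 8 of 16 of complex V. The YY1 core was present in 7 (10.45%, against 3.0% of tested genes), the ETS core in 15 (22.4 against 17.2%) and the hypoxia core in 18 (26.9 against 25.3%). Of the 24 genes with the NRF1 core 10 were higher in IL-2, and of the 43 without it 23 were. In the bases shown, Cox6a1 and Atp5g2 (higher in IL-2) and Atp5sl (lower) hold an NRF1 core, and Ndufv3, Cox7a1 and Cox7a2l hold none of the 4 cores. After the start, within the window searched, Ndufv3 and Cox7a1 each hold a hypoxia core. A match describes the letters only.

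IL-21 gave 2 of 79 genes higher than no cytokine and 0 lower, where 11.5% of all genes were called, 5.65% higher and 5.9% lower. They were Ndufa1 and Ndufs6, both accessory subunits of complex I. Ndufa1 had 65.1 and 68.6 normalised RPKM in IL-21 against 50.9 and 41.7 without cytokine (0.53 ± 0.12, adjusted p = 0.0284), and Ndufs6 46.2 and 59.9 in IL-21 against 36.1 and 35.4 without cytokine (0.57 ± 0.14, adjusted p = 0.033). Neither gene's groups overlapped. At an unadjusted p below 0.05 there were 14 of 79 genes, beside 3955 of all 14357 genes, so this count does not stand out. DESeq2 called 8. Without IL-21 replicate 2 there were 16 genes called, all of them higher, and without IL-21 replicate 1 there were 20, of which 16 were lower; the median member stood at 0.33 and at -0.25 in these fits. The count was 0 without no-cytokine replicate 2, and 0 with any 1 library of IL-2, IL-2 + LDHi or IL-21 + LDHi left out. Summed macrophage and dendritic cell markers were at 81.0 and 103 in IL-21 against 193 and 254 without cytokine (3 of 5 lower and 1 higher), and basophil and mast cell markers at 83.1 and 136 against 261 and 576 (3 of 4 lower); their part was not tested.

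**Figure D3:**
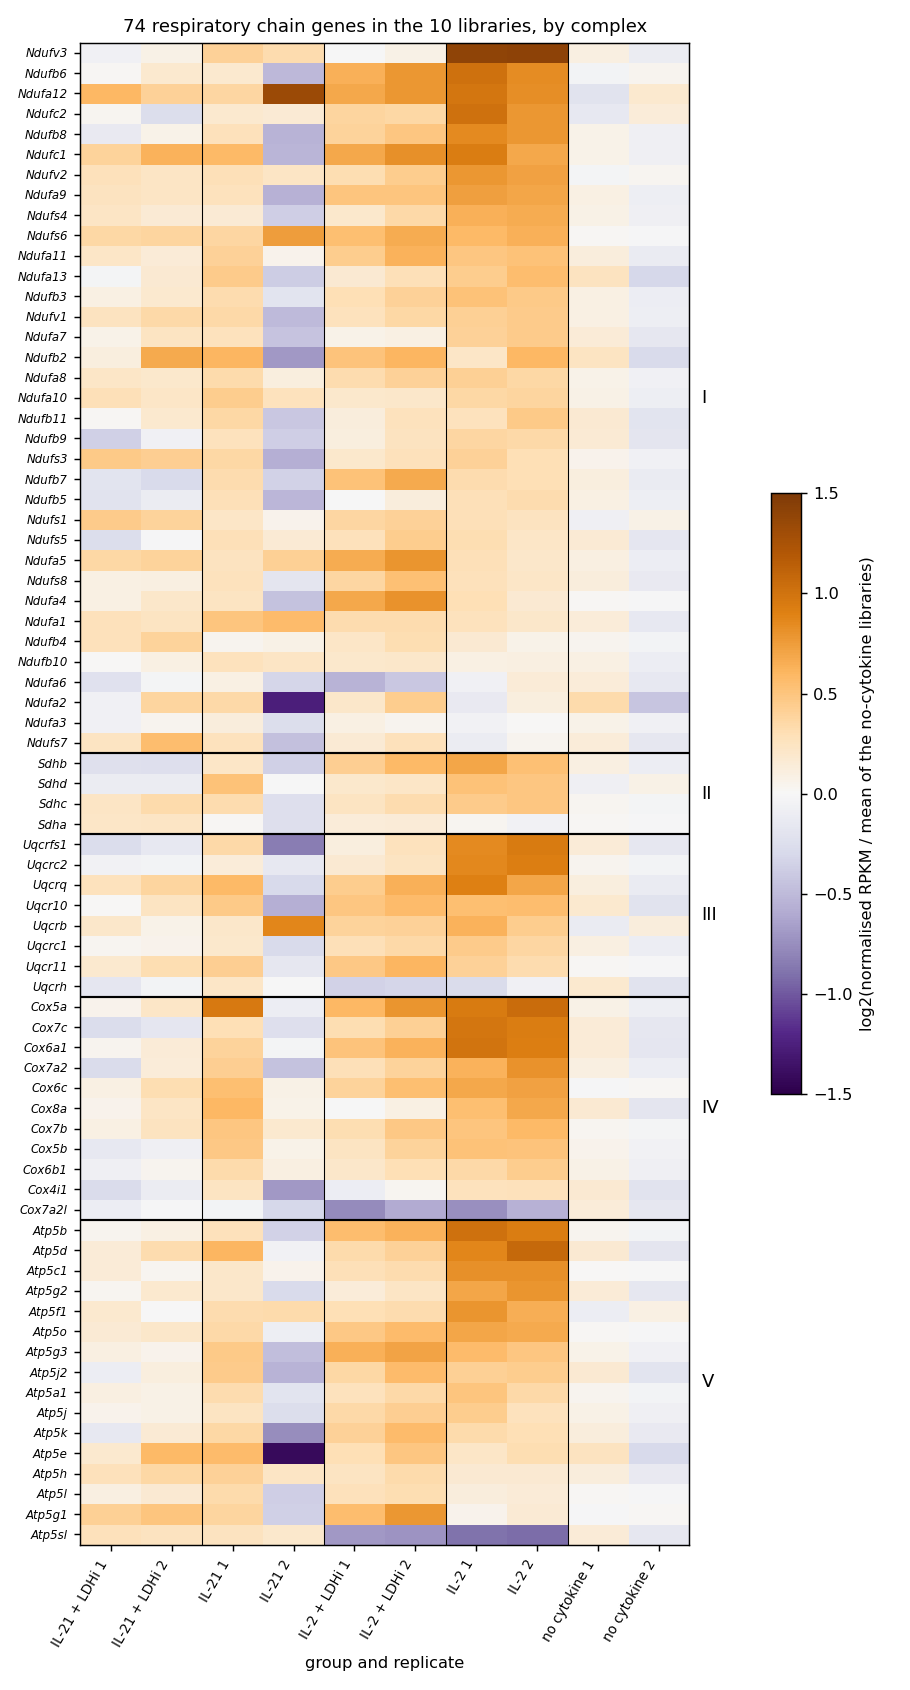
Log2 ratio of each gene's normalised RPKM to its mean without cytokine (colour, purple lower, orange higher, from -1.41 to 1.42) for 74 genes in rows, by complex and within a complex by the change in IL-2, and the 10 libraries in columns. The IL-2 columns are the most uniformly orange, and the columns of IL-21 replicates 1 and 2 differ in sign for many genes.

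Set against IL-2, IL-21 gave 23 genes lower and 2 higher, where 49.6% of all genes were called, 24.7% lower and 24.9% higher. The lower genes were 7 of complex I, 1 of complex II, 3 of complex III, 5 of complex IV and 7 of complex V, and the median member was at -0.37. Ndufv3 had 51.4 and 48.3 normalised RPKM in IL-21 against 102 and 104 in IL-2 (-1.05 ± 0.11, adjusted p = 9.72e-05). Uqcrc2 had 78.8 and 65.1 in IL-21 against 130.5 and 136 in IL-2 (-0.89 ± 0.11), and Atp5c1 had 114 and 103 against 174 and 174 (-0.68 ± 0.10). Of the minor isoforms, Cox6b2 had 1.71 and 1.76 in IL-21 against 7.68 and 8.84 in IL-2 (-2.25 ± 0.42), and Cox6a2 (-3.93 ± 0.48) and Cox7a1 (-3.23 ± 0.55) were lower too. The higher genes were Cox7a2l (0.48 ± 0.15) and Atp5sl (1.13 ± 0.12). With IL-21 replicate 1 left out 61 genes were called, 60 of them lower, and with replicate 2 left out 25, with medians of -0.73 and -0.07; a fit of only these groups called 15. Cox7a2l lost its call without IL-21 replicate 1 or either IL-2 library. Summed macrophage and dendritic cell markers (81.0 and 103 in IL-21 against 16.3 and 19.6 in IL-2) and basophil and mast cell markers (83.1 and 136 against 2.59 and 2.88) were higher in IL-21, and their part was not tested.

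With the LDH inhibitor in IL-2, 15 genes were lower and 1 higher than in IL-2 alone, against 39.4% of all genes called, 21.6% lower and 17.8% higher, so the members' share of lower genes was near that of all genes. The median member was at -0.14, beside 0.01 for all genes and -0.11 for genes with transcripts under 1000 bases. Complex IV had all 14 genes below 0 and 5 of them called (median -0.35). The called genes included the minor isoforms Cox6a2, Cox6b2 and Cox7a1. Over the 11 complex IV genes with a mean of at least 5 normalised RPKM the median was -0.30. Complex I (4 lower and 1 higher), complex II (0 called), complex III (1 lower) and complex V (5 lower) had medians of -0.09, -0.15, -0.15 and 0.04. Markers of other cells moved as well. Ncr1, the receptor gene that stood for NK cells, had 5.66 and 5.01 normalised RPKM in IL-2 + LDHi against 0.166 and 0.0814 in IL-2 (5.42 ± 0.54, adjusted p = 0.000119). Of the 5 macrophage and dendritic cell markers, 3 were higher (Csf1r by 3.43 ± 0.45) and 1 lower (Cd68, -1.51 ± 0.24), with sums of 16.8 and 23.2 in IL-2 + LDHi against 16.3 and 19.6 in IL-2. Erythroid markers summed to 0.248 and 0.168 in IL-2 + LDHi, where Alas2 and Hba-a1 had 0 reads in replicate 2, against 3.57 and 4.44 in IL-2, with 2 of 3 lower, and basophil and mast cell markers to 0.765 and 1.10 against 2.59 and 2.88, with 1 of 4 lower. Their part in the members' values was not tested. This comparison uses the same IL-2 libraries as those of IL-2 against no cytokine and of IL-21 against IL-2.

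Ndufv3 stood at 38.8 and 40.8 normalised RPKM in IL-2 + LDHi against 102 and 104 in IL-2 (-1.37 ± 0.11, adjusted p = 4.03e-05). Cox6a2 had 3 and 3 reads in IL-2 + LDHi against 71 and 82 in IL-2, and Cox7a1 10 and 3 against 31 and 38. Cox6b2 stood at 1.53 and 1.39 normalised RPKM in IL-2 + LDHi against 7.68 and 8.84 in IL-2 (-2.49 ± 0.42). None of these groups overlapped. Uqcrc2 (-0.69 ± 0.11), Atp5c1 (-0.50 ± 0.10), Atp5g2 (-0.56 ± 0.17), Cox7c (-0.59 ± 0.18), Cox8a (-0.57 ± 0.18) and Ndufv2 (-0.37 ± 0.10) were lower as well. Ndufa5, a complex I accessory subunit, was the gene called higher, with 44.4 and 48.6 in IL-2 + LDHi against 34.2 and 32.3 in IL-2 (0.48 ± 0.13). Cox7a2l (-0.03), Atp5sl (0.20) and Atp5a1 (-0.12) did not pass the test. The count of 16 was 7 with either IL-2 library left out, 6 and 5 without IL-2 + LDHi replicates 1 and 2, 28 with either IL-21 library left out, 7 by limma and 44 in a fit of only these groups. Atp5g2, Cox7c, Cox8a, Ndufv2 and Ndufa5 lost their call without any 1 of the 4 libraries compared, Cox8a also without either IL-21 + LDHi library, and Cox7a1 without IL-2 + LDHi replicate 2.

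**Figure D4:**
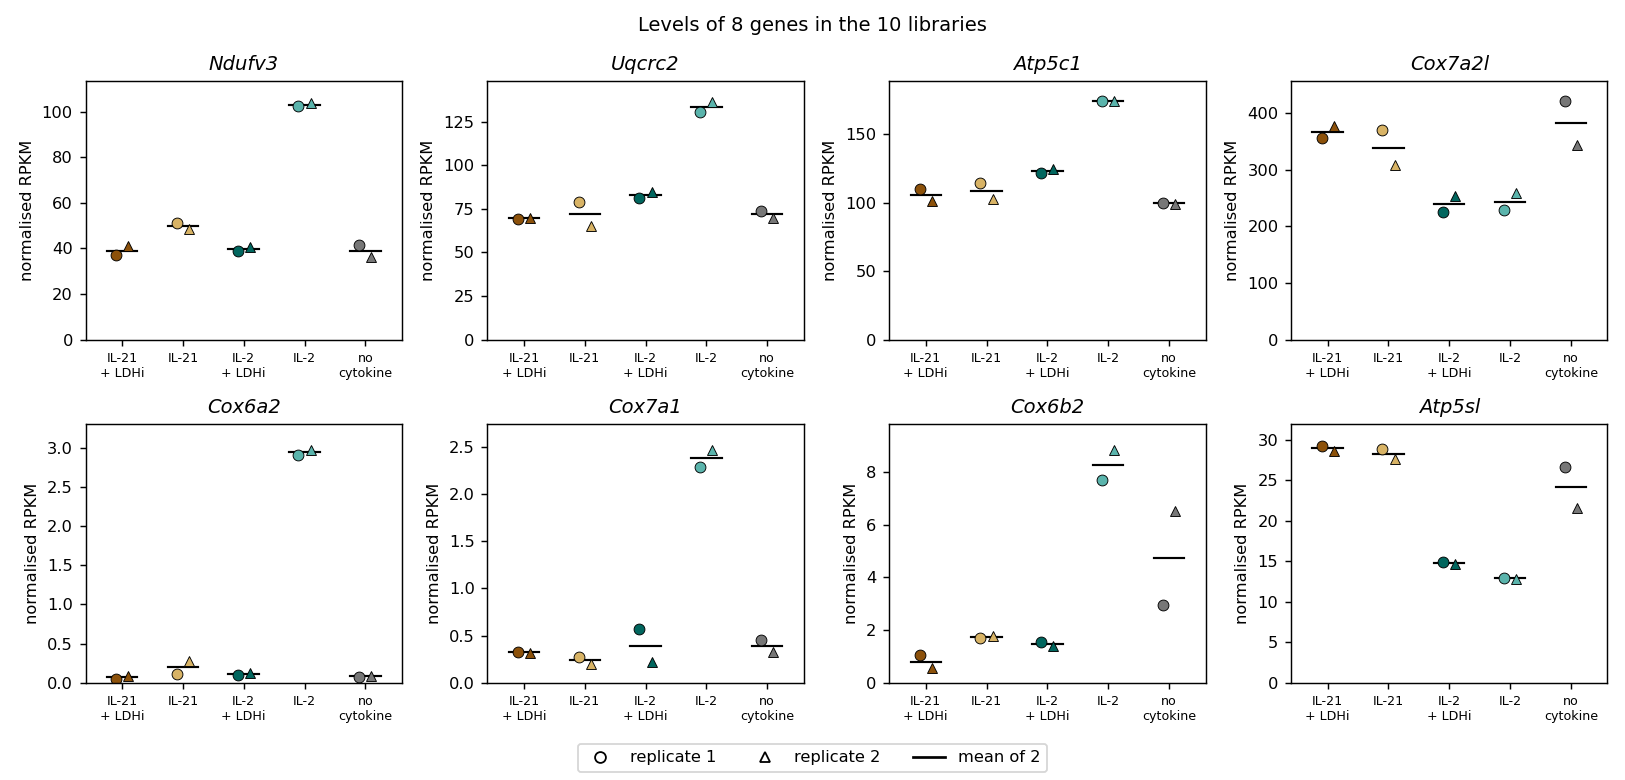
Normalised RPKM (vertical axes, from 0) of 8 genes in the 10 libraries, with circles for replicate 1, triangles for replicate 2 and a line for their mean. Ndufv3, Uqcrc2, Atp5c1, Cox6a2, Cox7a1 and Cox6b2 are highest in IL-2 (Ndufv3 at 102 and 104), and Cox7a2l and Atp5sl are low in all 4 libraries with IL-2 (Atp5sl at 12.8 to 14.9).

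With the inhibitor in IL-21, 2 genes were higher and 1 lower than in IL-21 alone, against 31.4% of all genes called, 11.1% higher and 20.3% lower. Atp5s, known as a coupling factor, was higher (3.98 and 3.06 normalised RPKM in IL-21 + LDHi against 1.92 and 1.96 in IL-21 alone, 0.86 ± 0.25), as was Sdha (101 and 101 against 87.7 and 73.2, 0.33 ± 0.11). Ndufv3 was lower (37.1 and 41.1 in IL-21 + LDHi against 51.4 and 48.3 in IL-21 alone, -0.35 ± 0.11). The groups of these 3 genes, picked by their calls, did not overlap, and the share over all genes was not counted. Summed macrophage and dendritic cell markers were at 9.64 and 11.9 in IL-21 + LDHi against 81.0 and 103 in IL-21 alone, and basophil and mast cell markers at 0.533 and 1.13 against 83.1 and 136, and their part was not tested. Without IL-21 replicate 1 there were 33 calls, 30 of them higher, and without replicate 2 there were 12, all of them lower, with medians of 0.28 and -0.20. The count was 0 with any 1 library of IL-21 + LDHi or IL-2 + LDHi left out, 1 with either IL-2 library left out, and 5 by DESeq2; Atp5s lost its call without either IL-21 library, Ndufv3 without IL-21 replicate 1, and Sdha when any 1 library other than IL-21 replicate 1 was left out.

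Between the inhibitor groups, IL-21 + LDHi had 6 genes lower and 2 higher than IL-2 + LDHi, against 26.1% of all genes called, 16.7% lower and 9.39% higher, and the median member was at -0.22. Sdhb had 57.1 and 56.6 normalised RPKM in IL-21 + LDHi against 89.7 and 100.5 in IL-2 + LDHi (-0.74 ± 0.18). Ndufb7, an accessory subunit of complex I, had 48.2 and 44.9 against 78.99 and 87.5 (-0.84 ± 0.20), and Ndufa4 113 and 123 against 171 and 187 (-0.60 ± 0.19). Cox7c (-0.58 ± 0.18), Ndufc2 (-0.48 ± 0.15) and Cox5b (-0.43 ± 0.14) were lower and Cox7a2l (0.61 ± 0.15) and Atp5sl (0.97 ± 0.12) were higher. No library is shared with IL-21 against IL-2. Of the 6 lower genes Sdhb, Cox7c and Ndufc2 (50%) were also among the 23 lower there (13.04% of those). The 2 higher genes were the same. In that comparison 24.7% of all genes were lower and 24.9% higher, and the overlap over all genes was not counted. By sign 62 of 79 genes matched, 58 of them negative. As 63 of 79 were negative here and 70 of 79 there, these matches say little about single genes. The count of 8 was 31 with either IL-21 library left out, 4 with either IL-2 library left out, 3 and 1 without IL-2 + LDHi replicates 1 and 2, 1 with either IL-21 + LDHi library left out, 13 by DESeq2 and 48 in a fit of only these groups. Atp5sl kept its call in each of these. Ncr1 had 0.0616 and 0.119 in IL-21 + LDHi against 5.66 and 5.01 in IL-2 + LDHi (-5.84 ± 0.57), and 2 of the 5 macrophage and dendritic cell markers were lower (sums of 9.64 and 11.9 in IL-21 + LDHi against 16.8 and 23.2 in IL-2 + LDHi); their part was not tested.

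The change with the inhibitor was compared between the cytokines directly, as IL-21 + LDHi minus IL-21 less IL-2 + LDHi minus IL-2. In 6 of 79 genes this difference was called, each time higher with IL-21, against 21.8% of all genes called, 7.98% higher and 13.8% lower. They were Ndufv3 (1.02 ± 0.15, adjusted p = 0.00179), Atp5s (1.67 ± 0.35), Uqcrc2 (0.64 ± 0.16), Cox7a1 (2.91 ± 0.86), Atp5c1 (0.46 ± 0.14) and Cox6a2 (3.31 ± 1.02). Ndufv3 changed by -0.35 with the inhibitor in IL-21 and by -1.37 in IL-2, and Uqcrc2 had values of -0.05 and -0.69. The count was 35 without IL-21 replicate 1, 9 without IL-21 replicate 2, 3 with either no-cytokine library left out, and 1 or 2 with any 1 library of IL-21 + LDHi, IL-2 + LDHi or IL-2 left out. Of the 35 genes 33 were higher and 2 lower, with the median of all members at 0.45, and of the 9 genes 4 were higher and 5 lower, with that median at -0.07, so the direction of the median turned with the IL-21 library left out. Ndufv3 kept its call in each, while Atp5s, Uqcrc2, Cox7a1, Atp5c1 and Cox6a2 lost theirs in at least 1 of these fits. Ncr1 (-6.37 ± 0.86), 4 of 5 macrophage and dendritic cell markers and 3 of 4 basophil and mast cell markers were called in the other direction, and their part was not tested.

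Relative to complex I in the same library, complex IV as grouped here by symbol was lower in the libraries with the inhibitor. The ratio of the geometric mean of complex IV to that of complex I was 2.61 and 2.75 in IL-21 + LDHi, 3.23 and 3.04 in IL-21 alone, 2.74 and 2.82 in IL-2 + LDHi, 3.14 and 3.30 in IL-2, 2.99 and 2.95 without cytokine. The 4 libraries with LDHi thus lay below the 6 without it. IL-21 replicate 2, itself among those 6, was at 3.04, between the values of the others. The complex IV mean counts Cox7a2l, which was lower in all 4 libraries with IL-2 than in the 6 others. That IL-2 + LDHi lay below no cytokine depends on counting Cox7a2l. The complex I mean counts Ndufa4. The ratio of complex III to complex I was 1.70 and 1.69 in IL-21 + LDHi, 1.82 and 1.78 in IL-21 alone, 1.76 and 1.75 in IL-2 + LDHi, 1.96 and 1.93 in IL-2, 1.80 and 1.81 without cytokine, with the same separation. By that ratio IL-21 replicate 2, at 1.78, was the lowest of the libraries without LDHi. Over genes with transcripts under 1000 bases alone (9 of complex IV and 25 of complex I) the complex IV ratio was 2.23 and 2.31 in IL-21 + LDHi, 2.84 and 2.57 in IL-21 alone, 2.45 and 2.50 in IL-2 + LDHi, 3.04 and 3.16 in IL-2, and 2.55 and 2.49 without cytokine, so IL-2 + LDHi and no cytokine overlapped there. Over such genes the complex III ratio (5 of complex III) was 1.81 and 1.77 in IL-21 + LDHi, 1.90 and 1.97 in IL-21 alone, 1.77 and 1.76 in IL-2 + LDHi, 1.87 and 1.81 in IL-2, and 1.78 and 1.81 without cytokine, so IL-21 + LDHi and no cytokine overlapped and the separation did not hold. Complex V to complex I was 2.70 and 2.41 in IL-21 and 2.59 to 2.63 in the other 8 libraries, and complex II to complex I ranged from 1.29 to 1.51. These ratios are descriptions and were not tested.

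**Figure D5:**
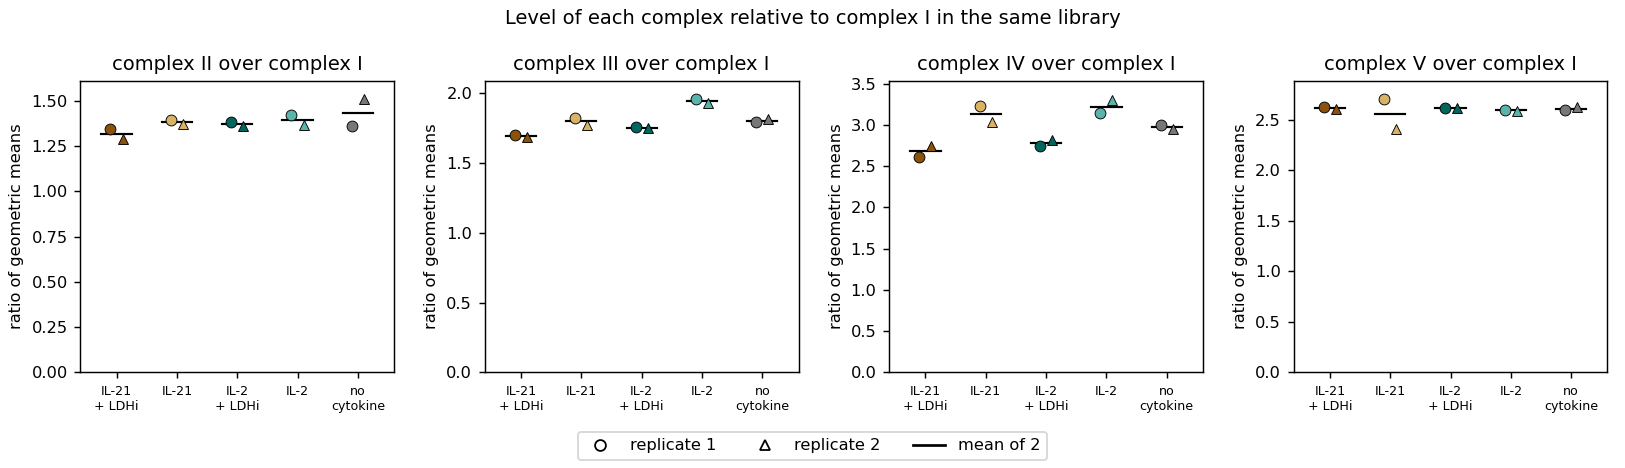
Ratio of the geometric mean of complexes II, III, IV and V to that of complex I in the same library (vertical axes), by group, with circles for replicate 1, triangles for replicate 2 and a line for their mean. In the panels of complexes III and IV the 4 LDHi libraries lie below the 6 others (complex IV 2.61 to 2.82 against 2.95 to 3.30). For complex IV, that IL-2 + LDHi lies below no cytokine depends on counting Cox7a2l. Over transcripts under 1000 bases alone, which are not plotted, neither separation held.

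Genes that build and regulate the chain were counted from lists, of which 41 assembly factors, 18 electron carrier and ubiquinone synthesis genes, 76 mitochondrial ribosome genes, 11 genes of mitochondrial DNA expression, 11 regulators and 5 genes of ATP export, inhibition or uncoupling were tested. In IL-2 against no cytokine the mitochondrial ribosome had 30 higher and 2 lower (median 0.41), the assembly factors 9 higher and 0 lower (0.13), and the carriers 8 higher and 0 lower (0.35), where 25.6% of all genes were higher and 24.8% lower, so the share of higher assembly factors was near that of all genes. Ndufaf6, a complex I assembly factor, had 8.82 and 10.5 normalised RPKM in IL-2 against 3.88 and 3.36 without cytokine (1.41 ± 0.21). Bcs1l, which inserts the Rieske protein into complex III, had 10.6 and 10.4 in IL-2 against 5.57 and 4.95 without cytokine (1.00 ± 0.14). Sco1, which carries copper to complex IV, was higher by 0.98 ± 0.21. Of the carriers, Etfa, which passes electrons from fatty acid oxidation, was higher by 0.91 ± 0.12, and Ndufab1, the acyl carrier protein of complex I, by 0.95 ± 0.13. The ATP exporters Slc25a4 and Slc25a5 were higher by 0.93 ± 0.21 and 0.85 ± 0.17. Mitochondrial DNA expression had 3 higher and 2 lower, with Tfb1m at 1.04 ± 0.17 and the RNA polymerase gene Polrmt at -0.54 ± 0.14, and the regulators had 3 higher and 1 lower.

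The mitochondrial ribosome in IL-21 against IL-2 had 4 higher and 22 lower, the assembly factors 9 higher and 6 lower and the carriers 0 higher and 7 lower, where 24.9% of all genes were higher and 24.7% lower. Mrpl45, a protein of the large mitochondrial ribosome subunit, had 13.5 and 10.7 normalised RPKM in IL-21 against 28.5 and 30.0 in IL-2 (-1.27 ± 0.13). In IL-2 + LDHi against IL-2 these lists had 6 higher and 10 lower, 4 higher and 6 lower and 0 higher and 2 lower (all genes 17.8% higher and 21.6% lower). With the inhibitor in IL-21 they had 6 higher and 2 lower, 2 higher and 1 lower and 4 higher and 1 lower (all genes 11.1% higher and 20.3% lower). Against no cytokine, IL-21 gave in these lists 2 higher and 0 lower, 1 higher and 0 lower and 1 higher and 0 lower (all genes 5.65% higher and 5.9% lower); Cox10, a haem enzyme needed for complex IV, was the assembly factor called (0.56 ± 0.11).

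Atpif1, whose protein blocks ATP hydrolysis by complex V, was lower with the inhibitor under both cytokines. It had 20.4 and 21.8 normalised RPKM in IL-21 + LDHi against 65.2 and 92.9 in IL-21 (-1.90 ± 0.19, adjusted p = 0.0001), and 55.1 and 58.5 in IL-2 + LDHi against 134 and 124 in IL-2 (-1.19 ± 0.18, adjusted p = 0.00115). Hif1a, the hypoxia-response factor, had 26.0 and 23.8 in IL-21 + LDHi against 58.0 and 83.9 in IL-21 (-1.51 ± 0.16), and 31.8 and 32.3 in IL-2 + LDHi against 142 and 138 in IL-2 (-2.13 ± 0.16). Neither gene's groups overlapped in these comparisons. Ppargc1b, a coactivator of mitochondrial genes, was higher in IL-2 + LDHi than in IL-2 (1.11 ± 0.16) and lower in IL-2 than without cytokine (-1.22 ± 0.16). Myc was higher in IL-2 (1.60 ± 0.15) and in IL-21 (0.88 ± 0.15) than without cytokine, and lower in IL-2 + LDHi than in IL-2 (-0.96 ± 0.15). Nrf1 was higher by 0.56 ± 0.13 in IL-2 + LDHi than in IL-2.

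Over the 7 comparisons 49 of the 79 genes were called at least once and 30 never, where 73.2% of all 14357 genes were called at least once, a larger share. The 30 were 17 of 36 in complex I, 0 of 4 in complex II, 3 of 8 in complex III, 1 of 14 in complex IV (Cox4i1) and 9 of 17 in complex V. The complex I core subunits Ndufs1, Ndufs3, Ndufs7, Ndufs8 and Ndufv1 and the alpha subunit Atp5a1 were among them. A missing call does not show that a gene did not change.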

How the data were processed

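Poly(A) RNA from 10 libraries was sequenced. The authors deposited read counts per transcript and RPKM; per the submitters' processing notes they used Bowtie2 2.2.6, TopHat2 2.2.1, SAMtools 0.1.8, bedtools 2.25.0, edgeR and the mm10 build. The RPKM were calculated by the authors per library, and they are lowered where fewer reads fell on transcripts. Whether counting used strand is not given in the sources, so reads of a gene and of an overlapping opposite-strand gene (25 members) cannot be told apart.

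Per symbol, the transcript with the most reads was kept. The counts were tested with edgeR 4.0.16 (R 4.3.3): filterByExpr with a minimum count of 10 and a minimum total of 15, TMM scaling, 1 fit of all 5 groups, robust quasi-likelihood, and Benjamini-Hochberg adjustment over 14357 genes in each of the 7 comparisons. The script was tested on simulated data. Levels are recomputed from the counts with TMM library sizes, and SEs come from the fold change and F. Alternatives were other scalings, no filter, the longest transcript, DESeq2 1.42.0, limma 3.58.1 on log2(RPKM + 1), a replicate block, fits of only the libraries of a comparison, and each library left out. Ratios over short transcripts were added after the data were seen.

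Named were up to 5 called members per direction and comparison by p, the catalytic core, isoforms and paralogs, symbols in a complex by name alone, and up to 4 genes per other list. Uqcrh, Atp5f1 and Atp5o were named after their values were seen. The members and lists were chosen with earlier results of these data known. All 80 members were found in the RefSeq table. The values of 1 gene are not reported here.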

Additional observations from a re-analysis of the deposited data

Results flagged for a closer look

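In 6 genes the main fit called the change with LDHi different between IL-21 and IL-2. The measure was the interaction term of edgeR's quasi-likelihood fit, the change in IL-21 minus the change in IL-2 on the log2 scale. The difference was 1.02 for Ndufv3, 1.67 for Atp5s, 0.64 for Uqcrc2, 2.91 for Cox7a1, 0.46 for Atp5c1 and 3.31 for Cox6a2. Cox6a2 and Cox7a1 lost the call by DESeq2, and Uqcrc2 and Atp5c1 lost it by limma. Cox6a2 and Atp5c1 also lost it with library size alone and with the replicate block. All but Ndufv3 lost it in some fit with 1 library left out. Cox6a2 and Cox7a1 had few reads in both IL-21 groups, so a fall there could hardly be seen. With 2 libraries in a group, single libraries could not be tested as outliers.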

How the results depend on the processing

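None of the 75 calls of the 43 named genes changed sign under the alternatives run, but many were lost. By limma 29 of the 75 were lost, with library size alone 17, and in fits of only the groups compared 10. Without the filter 8 were lost, with the replicate block 8, and by DESeq2 2. The most were lost without IL-2 replicate 1. Of the 219 values of the named genes that were not called, 98 had the other sign under at least 1 alternative, and 6 were called with the other sign. Calls of genes in the respiratory chain numbered 23 (IL-2 against no cytokine) and 7 (IL-2 + LDHi against IL-2) by limma, which gave 1 in IL-21 against no cytokine and 1 in IL-21 + LDHi against IL-21. DESeq2 gave 8, 5 and 13 in IL-21 against no cytokine, IL-21 + LDHi against IL-21 and IL-21 + LDHi against IL-2 + LDHi. Scaling by library size alone gave 1 in IL-21 against no cytokine, 10 in IL-2 + LDHi against IL-2 and 15 in IL-21 + LDHi against IL-2 + LDHi. It moved the median of all genes to -0.17 in IL-2 against no cytokine, to 0.13 in IL-2 + LDHi against IL-2 and to -0.22 in the interaction, and that of complex III to 0.4037, -0.0325 and -0.0003. Without the filter there were 1 in IL-21 + LDHi against IL-21 and 3 in the interaction. A fit of only the groups compared gave 0 genes of the chain in IL-21 against no cytokine (91 of all genes), 15 in IL-21 against IL-2 (4522), 44 in IL-2 + LDHi against IL-2 (9069), 0 in IL-21 + LDHi against IL-21 (2259) and 48 in IL-21 + LDHi against IL-2 + LDHi (7352). The cause was not tested.

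Deviations of same-numbered libraries from their group means correlated at -0.14 to 0.46 between groups, the highest between IL-21 and no cytokine, so a pairing by number was not taken as shown. Summed B cell markers were higher in replicate 1 than in replicate 2 of each group, and summed macrophage and dendritic cell markers lower. With the replicate block there was 1 call in IL-21 + LDHi against IL-21 and 5 in IL-21 + LDHi against IL-2 + LDHi.

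With each library left out in turn, calls in the chain ranged from 21 to 58 in IL-2 against no cytokine (4956 to 8911 of all genes), 0 to 20 in IL-21 against no cytokine (749 to 3967), 17 to 61 in IL-21 against IL-2 (4509 to 8370), 5 to 28 in IL-2 + LDHi against IL-2 (3109 to 7326), 0 to 33 in IL-21 + LDHi against IL-21 (2453 to 6660), 1 to 31 in IL-21 + LDHi against IL-2 + LDHi (2055 to 5493) and 1 to 35 in the interaction (1750 to 5203). A lone library left in a group is assumed to vary like the other groups. Ndufv3 kept its call in IL-2 against no cytokine, IL-21 against IL-2, IL-2 + LDHi against IL-2 and the interaction under every alternative run. Depth limits Cox6a2, Cox7a1 and Cox4i2, which had few reads.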
